A study of Homo sapiens with 2 samples.

Results

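The ATP-binding cassette (ABC) transporter family was described on 2 single-colour Agilent expression arrays of HCT116 cells, an established human colorectal carcinoma line, grown in McCoy's 5a medium with fetal bovine serum and transfected with Lipofectamine 2000. One array held RNA taken 48 h after transfection with a mimic of the microRNA miR-204-5p, and 1 held RNA taken 48 h after transfection with a negative control. Members were all probes in the authors' deposited table of detected probes whose gene symbol was ABC, a letter from A to G and a digit. This gave 43 probes for 31 genes, out of 20291 probes and 14933 named genes in that table. By subfamily letter there were 9 genes in A, 5 in B, 7 in C, 3 in D, 1 in E, 3 in F and 3 in G. Each group had 1 array, so every difference below describes these 2 arrays, has no replicate error, SE or p-value, and cannot show whether the groups overlap. An effect of the mimic and any other difference between the cultures cannot be told apart, nor can fewer cells of a type and less RNA per cell.

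ABC proteins bind and hydrolyse ATP at conserved nucleotide-binding domains, and most use it to move a substrate across a membrane. Subfamily A moves mainly lipids; subfamily B includes the P-glycoprotein drug pump and transporters of mitochondria and lysosomes; subfamily C exports conjugated organic anions and also holds ion channel proteins and regulators. Subfamily D carries fatty acids into peroxisomes, subfamilies E and F have no membrane-spanning part and act on ribosomes, and subfamily G exports sterols and drugs. In colorectal epithelium the pumps of subfamilies B, C and G are known for exporting bile salts, conjugates and anticancer drugs.

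The transfected microRNA is shown because its seed, bases 2 to 8 in capitals, sets which transcripts it pairs with. The mature RNA has 22 bases, and its sequence lies in RefSeq (GRCh38.p14) at chr9:70810031-70810052 on the minus strand.
hsa-miR-204-5p: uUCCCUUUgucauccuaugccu
No 3' UTR sequence was used here, so whether an ABC transcript holds a match to the seed was not analysed here.

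Intensities below are scaled to the 75th percentile of each array, which was 1364 raw units for the mimic array and 894 for the control array. On this scale the median of 153 negative-control spots was 4.52 with the mimic and 4.45 with the control. A gene's value is the mean of log2 intensity over its table probes, and differences are mimic minus control. Genes were counted at a 2-fold difference. For scale, in 999 probes with 8 spots or more the SD of the difference between spots was typically 0.077 log2 (median), and in 2545 genes with 2 probes these lay a median of 0.48 log2 apart.

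A property of the deposited values bears on some of the lower genes. The raw mimic intensity of 1366 of the 1367 probes marked Down in the authors' deposited table was the product of the deposited fold and the raw control intensity, to a relative tolerance of 1e-06. Such probes are called recomputed here, because the mimic value cannot be told apart from one calculated from the fold. Of the 43 ABC probes, 2 were recomputed, a probe of ABCA1 and the probe of ABCG2. On the mimic array 95.5% of all spots were 1.2 times a number of 7 significant digits, beside 18.0% of the control spots. The spots of 41 ABC probes followed that pattern in full, and those of the same 2 recomputed probes did not. The cause was not tested. The authors' deposited table marks the other 41 ABC probes Up, including 10 whose deposited fold is below 1, so that mark was not used as a direction.

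The label was set against markers of the line's cell type. Of 18 epithelial and colorectal markers, 14 were in the table, of which 10 differed by 2-fold or more with the mimic array higher and 0 with it lower. They summed to 269415 on the mimic array but to 45722 on the control array. On the control array CDH1, which encodes E-cadherin, was at 36.6 against 11324 on the mimic array, and the epithelial transcription factors CDX2 and ELF3, both outside the table, were at 5.14 and 4.30, about the level of a negative-control spot. VIL1 was near that level on both arrays (5.92 and 5.39). Other listed markers were far above it on the control array too. KRT18 was at 43600 with the mimic and 22142 with the control, CLDN4 at 27650 and 13611, and KRT19 at 79450 and 6112. Of the 14 in the table, 3 had a difference below 0, all within 2-fold. Of 14 mesenchymal and fibroblast markers, 8 were in the table, 6 lower and 2 higher, and 5 of the lower genes had a recomputed probe. The 8 genes summed to 3377 with the mimic and 185912 with the control. VIM, with a recomputed probe, made up most of the control sum (1279 with the mimic and 163211 with the control). The 2 higher genes were COL1A1 (487 against 75.3) and ACTA2 (418 against 119). Blood markers summed to 5861 and 4549 and endothelial markers to 667 and 1017. The arrays labelled HCT116 therefore differed in the markers of the line, and the part of that difference in the ABC values below was not tested.

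Across the family, the mimic array was higher by 2-fold or more for 5 of 31 ABC genes (16.1%), ABCC2, ABCC1, ABCB8, ABCA7 and ABCB9, beside 13.9% of all genes. It was lower by 2-fold or more for another 5 (16.1%), ABCA1, ABCG2, ABCA10, ABCA9 and ABCD3, beside 14.3% of all genes. Both shares lay near those of all genes, so the counts themselves do not mark out the family. The median ABC difference was 0.00 log2, against -0.05 over all genes, and 16 of the 31 genes lay between the quartiles of all genes, -0.58 and 0.54. At 1.5-fold the counts were 6 higher, beside 23.5% of all genes, and 8 lower, beside 24.7%. The other 21 genes were within 2-fold, from -0.77 (ABCG1) to 1.00 (ABCF3, at 1.998-fold just inside the threshold). With the authors' deposited normalized values, whose median over all genes is 0.58, the same threshold gave 7 higher and 2 lower ABC genes, beside 30.9% of all genes higher and 6.84% lower.

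**Figure D1:**
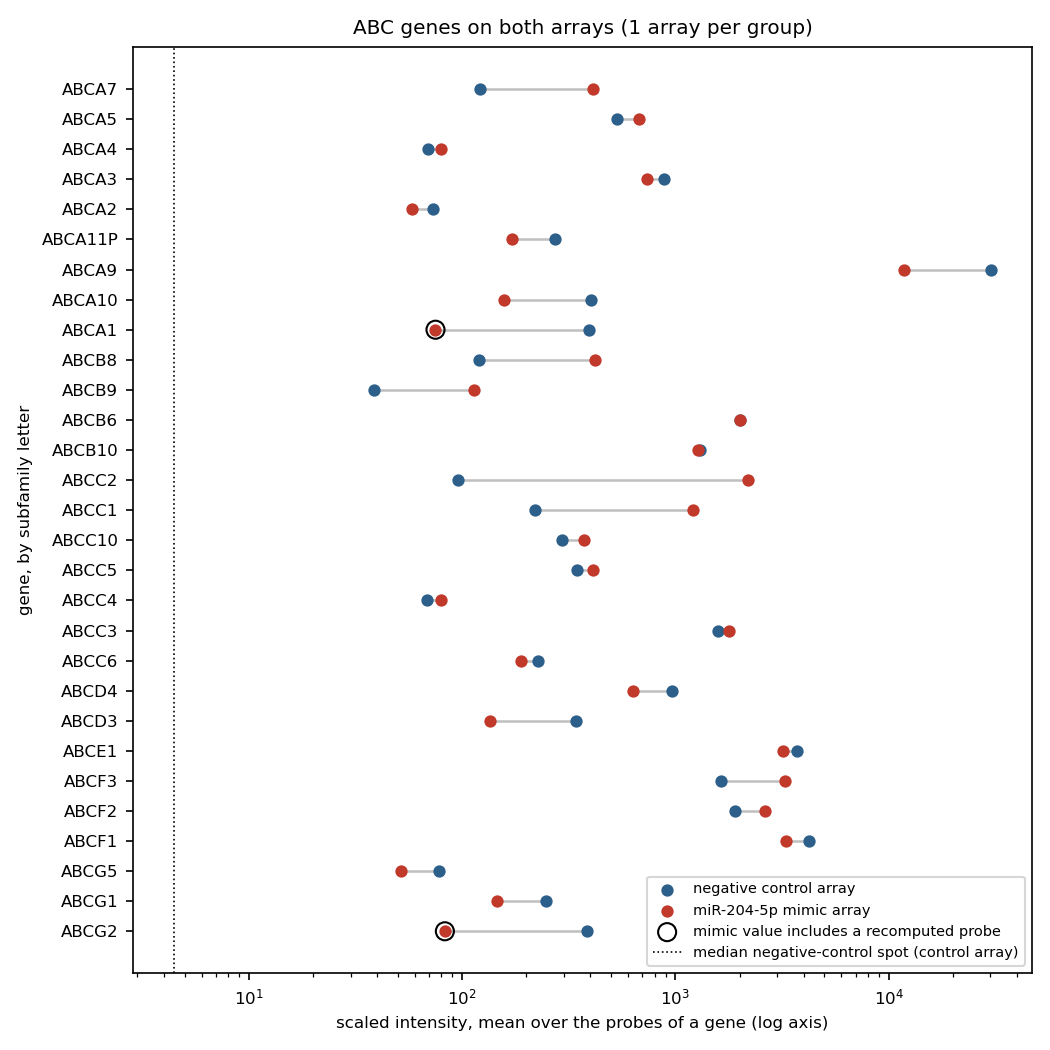
Scaled intensity of 29 of the 31 ABC genes (log axis) on the mimic array (red) and the control array (blue), ordered by subfamily letter and difference, with the mean over a gene's probes as the point and the median negative-control spot of the control array as a dotted line. The widest gap is that of ABCC2 (2186 against 95.7), and the circled mimic values of ABCA1 and ABCG2 include a recomputed probe.

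Subfamily C held the widest difference. ABCC2, the canalicular exporter MRP2 that moves glutathione and glucuronide conjugates across the apical membrane, had an intensity of 2186 with the mimic and 95.7 with the control. The mimic value was the high one, by 22.8-fold or 4.51 log2, above 99.5% of all genes. Its only table probe was printed once and maps to chromosome 10, bases 101611322 to 101611381. Probe positions are those of the deposited annotation, and no source used here names their genome build. ABCC1, the related multidrug resistance protein MRP1 of the basolateral membrane, had 1209 with the mimic and 221 with the control, 5.47-fold higher, also from 1 single-spot probe (chromosome 16 from 16236024 to 16236083). On the control array ABCC2 was 21.5 times and ABCC1 49.7 times the negative-control median, so neither fold is set by the floor.

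The other 5 genes of subfamily C were within 2-fold, and in 4 of them the probes lay on both sides of 0. ABCC3, a basolateral exporter of bile salts and glucuronides, had a mean difference of 0.18 from probes at 0.98 (2830 against 1434) and -0.63 (1125 against 1737). The cause of their gap was not tested. ABCC10, a lipophilic anion pump, had probes at 0.83 and -0.14. The nucleotide exporter ABCC5 had probes at 0.77, 0.03 and -0.03. ABCC6, whose loss causes the calcification disorder pseudoxanthoma elasticum, had probes at 0.56, -0.39 and -0.98. The first of these was printed in 10 spots, which ranged from 71.0 to 113 with the mimic and from 29.8 to 79.1 with the control, with an SD of the difference of 0.40, so the arrays overlapped at the level of spots. The 3 ABCC6 probes span 1398750 bases of chromosome 16 in the file's coordinates, and RefSeq lists the pseudogenes ABCC6P1 and ABCC6P2 on that chromosome. A further ABCC6 probe outside the table was at 46.1 against 70.4, or -0.61. Both of its values were over 10 times the negative-control median. ABCC4, a cyclic nucleotide and prostaglandin exporter, was at 79.2 against 68.2. The subfamily median was 0.26, and 6 of the 7 genes had a difference above 0.

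In subfamily B the higher genes were ABCB8 and ABCB9. ABCB8, a transporter of the mitochondrial inner membrane, was at 419 against 120, 3.51-fold higher. Its probes gave 1.59 (187 against 62.2) and 2.03 (939 against 230), a gap of 0.44 that is close to the usual gap between probes of a gene. ABCB9, the lysosomal peptide transporter TAPL, was at 113 against 38.7, 2.92-fold higher from 1 spot. Its control intensity was 8.71 times the negative-control median, the only ABC table value below 10 times, so its fold is sensitive to the floor, and it was 1.04 log2 when a constant of 32 was added.

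Of the haem-related members, ABCB10 and ABCB6 were close to equal on the arrays. ABCB10, a mitochondrial inner membrane protein of erythroid haem synthesis, was at 1278 against 1304, with probes 0.04 log2 apart. ABCB6, a porphyrin transporter, was at 2016 against 2014. The median of subfamily B was 0.35, and no gene of it in the table was below -0.03.

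**Figure D2:**
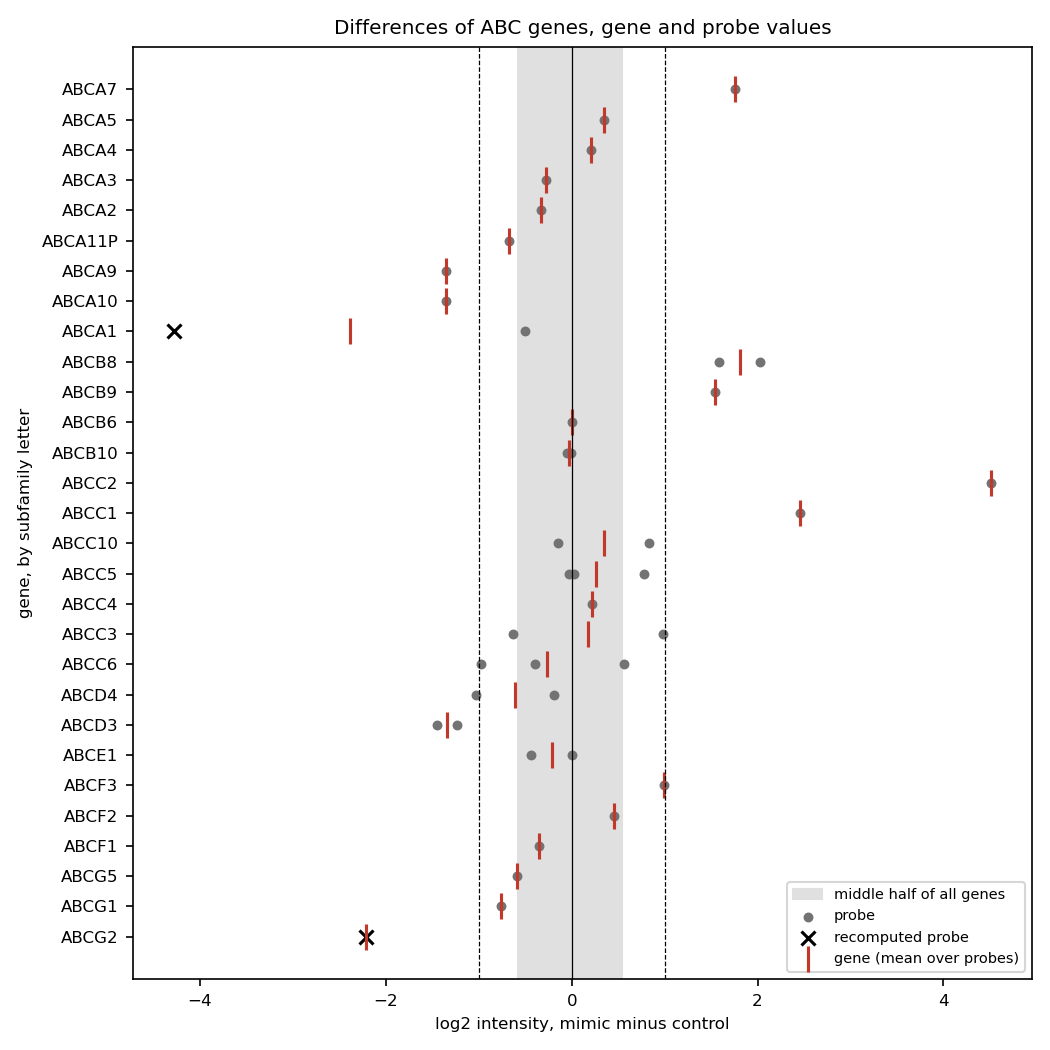
Log2 difference, mimic minus control, of 29 of the 31 ABC genes (red bar, mean over its probes), its probes (grey points) and recomputed probes (crosses), with the band between the quartiles of all genes in grey and 2-fold lines dashed. Both probes of ABCB8 and both of ABCD3 lie beyond 2-fold, whereas the ABCA1 probes are at -4.28 and -0.50 and those of ABCC3 lie on either side of 0.

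Subfamily A carried differences both ways. ABCA7, a phospholipid transporter with a role in phagocytosis, was at 410 against 122, 3.38-fold higher. ABCA1, the cholesterol and phospholipid exporter that loads apolipoprotein A-I, was at 75.01 against 393 as a mean of probes, 5.24-fold lower. That mean joined values that differ widely. The recomputed probe (chromosome 9 from 107543704 to 107543763) was at 93.4 against 1816, or -4.28 log2, while the other probe (107624012 to 107624071) was at 60.3 against 85.2, or -0.50. Without the recomputed probe ABCA1 was therefore within 2-fold.

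ABCA9 and ABCA10, which RefSeq places in a cluster of subfamily A genes on chromosome 17 with ABCA5, ABCA6 and ABCA8, had nearly the same difference. ABCA10 was at 157 against 401 and ABCA9 at 11868 against 30270, both 2.55-fold lower, from 1 single-spot probe each and none recomputed. ABCA5, in the same cluster, was at 675 against 530, or 0.35. Neither lower gene stayed past 2-fold with the authors' deposited normalized values as they stand (-0.65 for ABCA9 and -0.84 for ABCA10). The pseudogene ABCA11P was at -0.67, the pump ABCA2 of lysosomal lipids at -0.33, the surfactant lipid transporter ABCA3 at -0.28 and the retinal transporter ABCA4 at 0.21. The subfamily median was -0.33, with 1 gene higher, 3 lower and 5 within 2-fold.

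The table genes of subfamily G lay on the lower side, with all 3 below 0 and a median of -0.77. ABCG4, of the same subfamily but outside the table, was higher on the mimic array (346 against 25.5, from 1 spot). ABCG2, the breast cancer resistance protein that exports drugs, urate and porphyrins, was at 83.0 against 386, 4.65-fold lower. Its only table probe (chromosome 4 from 89011503 to 89011562) was recomputed, so no mimic value independent of the deposited fold stands behind it. ABCG1, which exports cholesterol to high-density lipoprotein, was at 145 against 247, 1.70-fold lower. ABCG5, a subunit of the intestinal sterol exporter, was at 51.8 against 77.6, or -0.58 log2. Its 10 spots ranged from 24.4 to 70.5 on the mimic array and from 38.1 to 99.9 on the control array, ranges that overlap. Between spots matched by position on the arrays, the SD of the difference was 0.22.

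In subfamily D, ABCD3, the peroxisomal protein PMP70 that takes up branched-chain and bile acid precursors, was at 136 against 344, 2.54-fold lower. Its probes gave -1.45 (189 against 517) and -1.23 (97.2 against 229), and neither was recomputed. It was the only lower ABC gene with 2 probes that were both past 2-fold. ABCD4, the lysosomal cobalamin transporter, had a difference of -0.61, from probes at -1.02 (4364 against 8878) and -0.19 (92.6 against 106). The subfamily median was -0.61.

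The members that act on ribosomes were far above background on both arrays and all within 2-fold. ABCE1, which splits ribosomes after termination, was at 3195 against 3713, ABCF1 at 3303 against 4221, ABCF2 at 2626 against 1912 and ABCF3 at 3271 against 1637. ABCE1 and ABCF1 were lower by 0.22 and 0.35 log2 and ABCF3 was higher by 1.00. The ABCF2 probe, 1 of the ABCE1 probes and 1 of the ABCB10 probes lie in the file's coordinates on chromosomes 3, 1 and 15, whereas RefSeq places the genes on 7, 4 and 1 and lists the pseudogenes ABCF2P1, ABCE1P2 and ABCB10P1 on the probes' chromosomes. In all, 4 of 41 ABC probes with coordinates lay on another chromosome than their gene. Whether they read the named genes was not checked.

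Most genes past 2-fold in either direction lay in the dimmer part of the table. The geometric mean intensity was above that of the median table probe (608) for 0 of the 5 higher genes and for 1 of the 5 lower genes, ABCA9, and for 11 of the 31 ABC genes in all. The higher genes stand on 5 different chromosomes (7, 10, 12, 16 and 19 in RefSeq). ABCC6, which RefSeq lists close to ABCC1, had a difference of -0.27.

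Promoters, 250 bases before to 50 after the RefSeq start on GRCh38.p14, were looked up for the 31 genes, of which 24 matched with 34 promoters, and 9 of the 10 genes past 2-fold were among them. ABCC2 is shown as the gene with the widest difference, ABCB8 as the higher gene with 2 agreeing probes, with its CCAAT boxes in capitals, and ABCA1 as the lower gene whose probes disagree, with its match to a DR4-type repeat in capitals, the element through which liver X receptors are known to act on this gene.
ABCC2, chr10:99782390-99782689, plus strand: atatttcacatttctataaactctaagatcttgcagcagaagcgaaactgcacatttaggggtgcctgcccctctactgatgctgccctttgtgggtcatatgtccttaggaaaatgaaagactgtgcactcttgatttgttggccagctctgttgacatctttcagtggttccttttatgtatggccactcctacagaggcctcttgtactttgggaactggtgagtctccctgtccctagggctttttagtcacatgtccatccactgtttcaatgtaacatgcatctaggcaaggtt
ABCB8, chr7:151028200-151028499, plus strand: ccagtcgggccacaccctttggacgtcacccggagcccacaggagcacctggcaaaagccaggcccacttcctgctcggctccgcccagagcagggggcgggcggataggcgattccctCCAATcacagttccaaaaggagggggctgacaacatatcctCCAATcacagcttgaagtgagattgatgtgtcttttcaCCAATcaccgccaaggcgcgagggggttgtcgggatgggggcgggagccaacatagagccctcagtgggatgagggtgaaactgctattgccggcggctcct
ABCA1, chr9:104928106-104928405, minus strand: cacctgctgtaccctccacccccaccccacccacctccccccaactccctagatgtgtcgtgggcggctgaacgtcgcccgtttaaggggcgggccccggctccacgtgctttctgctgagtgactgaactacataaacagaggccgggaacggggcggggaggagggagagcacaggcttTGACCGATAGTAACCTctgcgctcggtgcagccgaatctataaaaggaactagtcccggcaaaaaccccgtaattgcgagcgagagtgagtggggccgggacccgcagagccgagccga

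A set of 5 motifs was searched on both strands in these windows, with overlapping matches counted. The DR4-type repeat (AGGTNA and NGGTCA with 4 bases between) was in 0.094% of all 35116 promoters and in 1 of the 34 ABC promoters, that of ABCA1. CCAAT was in 34.6% of all promoters and in 6 ABC promoters (17.6%), with 3 matches in ABCB8. The core of the element bound by the aryl hydrocarbon receptor (GCGTG) was in 36.5% of all promoters and in 20 ABC promoters (58.8%), among them 3 of the 5 listed for ABCG2 and all 3 of ABCB9. The antioxidant element core (TGACNNNGC) was in 13.3% of all and 10 ABC promoters (29.4%), and the GC box (GGGCGG) in 44.95% of all and 20 ABC promoters (58.8%). Windows of a gene can overlap, as some do for ABCG2 and ABCC6, so a site may count in more than 1 promoter. By gene, of 24, CCAAT was in 6, GCGTG in 15, the antioxidant core in 10 and the GC box in 17. The ABCC2 window held none of the 5 and had 1 CpG, where the median promoter has 14 and 11.0% of all promoters have no more than 1. The ABC promoters were richer in G and C (median 65.7% against 58.7%). These letters describe the windows and show no binding.

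Members of the family outside the table were named through their transcript accession. There were 18 ABC genes with every probe outside it, of which 15 stayed below 10 times the negative-control median on both arrays. They were ABCA6, ABCA8, ABCA13, ABCA17P, ABCB4, ABCB5, ABCB11, ABCC6P1, ABCC8, ABCC9, ABCC11, ABCC12, ABCC13, ABCD2 and ABCG8, among them the bile salt pump ABCB11 and the sulfonylurea receptors ABCC8 and ABCC9. The 3 genes above that level were above it on the mimic array only. ABCB1, the P-glycoprotein drug pump, had a probe of 10 spots that ranged from 127 to 151 on the mimic array and from 9.47 to 25.5 on the control array, ranges that do not overlap. The difference was at least 7.37-fold, against the lowest control intensity in the table (18.7). The other ABCB1 probe was at 5.41 against 5.09, the level of negative-control spots on both arrays. ABCG4, a sterol exporter known mainly from brain, was at 346 against 25.5, at least 13.6-fold higher against its own control value, which was above 18.7 but only 5.74 times the negative-control median, and ABCA12, the epidermal lipid transporter, at 232 against 4.69, at least 12.4-fold higher against 18.7, both from 1 spot. ABCA2 had a second probe outside the table at 242 against 41.4, higher on the mimic array, while its table probe was at 58.2 against 73.4.

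In the other direction, and named after the values were seen, ABCA8 had a probe of 10 spots at 4.205 to 5.33 with the mimic and 21.1 to 35.5 with the control. The spots do not overlap, but both arrays were below 10 times the negative-control median, so no fold is given. A second ABCA8 probe did not show the difference, at 4.75 against 4.16, about the level of negative-control spots on both arrays. ABCC9 had a probe at 4.64 against 41.6 and a second at 5.99 against 5.53. One table probe, which the file names NCRNA00169 and RefSeq names ABCA15P, was no member by its symbol and was at 140 against 120.

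**Figure D3:**
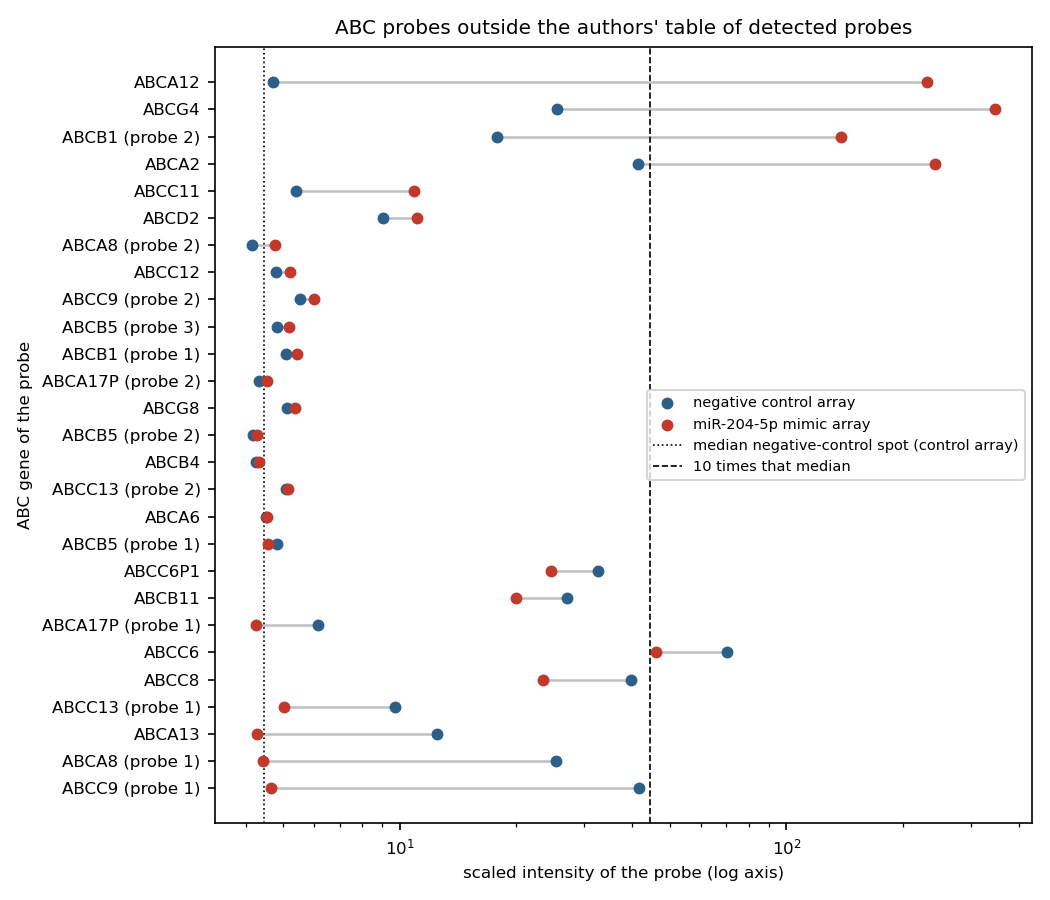
Scaled intensity (log axis) of 27 of the 28 ABC probes outside the authors' table on the mimic array (red) and the control array (blue), with the median negative-control spot of the control array dotted and 10 times that median dashed. ABCA12, ABCG4, 1 probe of ABCB1 and 1 of ABCA2 pass the dashed line on the mimic array only, and most of the others lie near the dotted line.

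Members of the family that carry other names did not match the rule. TAP1 and TAP2 form the transporter that brings peptides to class I molecules in the endoplasmic reticulum. TAP1 was at 7106 against 4791, or 0.57, and TAP2 at 439 against 789, or -0.84, both within 2-fold. The TAP2 value is the mean of probes at -1.39, past 2-fold, and -0.30. CFTR, the chloride channel of subfamily C, was at 5.78 against 6.98 over 10 spots, the level of negative controls on both arrays.

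Genes that work with the transporters were taken from lists, and counts are at 2-fold, to be read against 13.9% higher and 14.3% lower over all genes. Of 20 regulators of ABC genes 15 were in the table, 2 higher and 1 lower, with a median of 0.41. AHR, the aryl hydrocarbon receptor, was at 561 against 3850, 6.86-fold lower from 2 recomputed probes, while its partner ARNT was at 254 against 89.1, 2.85-fold higher. The sterol regulator SREBF1 was 2.15-fold higher. Its probes differed, at 0.36 and 1.84 log2.

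Of 20 conjugating and glutathione enzymes, which make substrates for subfamily C, 13 were in the table, 2 higher and 5 lower, with a median of -0.50. GSR, glutathione reductase, was at 881 against 187 and GSTP1, a glutathione transferase, at 73630 against 20364. The GSR value is the mean of probes that differed, at 1.23 and 3.25 log2. GSTM3, GSTA4, GSTM1 and MGST1 were lower, from 226-fold (GSTM3) to 3.07-fold (MGST1), all from recomputed probes. GCLM, a subunit of the enzyme that starts glutathione synthesis, was 2.14-fold lower from a probe that was not recomputed.

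Of 12 partners of cholesterol efflux 11 were in the table, 1 higher and 4 lower, with a median of -0.38. PLTP, the phospholipid transfer protein, was at 442 against 103, and NPC2, a carrier of lysosomal cholesterol, was 2.25-fold lower. APOC1 and SOAT1, an apolipoprotein and a cholesterol esterifying enzyme, were 52.1-fold and 3.77-fold lower from recomputed probes. Of 12 genes of peptide loading and class I antigen presentation 10 were in the table, 3 higher and 2 lower, with a median of 0.15. The class I heavy chain genes HLA-B and HLA-C were 2.96-fold and 4.39-fold higher, though their probes may also read each other's transcripts. The peptide trimming enzymes ERAP1 and ERAP2 were 4.34-fold and 5.38-fold lower from recomputed probes.

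Of 16 peroxisome partners 15 were in the table, 3 higher and 0 lower, with a median of 0.07. Among the higher genes was the import receptor PEX5 (85.3 against 39.9). Of 16 iron-sulfur and haem genes all were in the table, 1 higher and 2 lower, with a median of 0.29. The higher gene was CPOX, the haem pathway enzyme coproporphyrinogen oxidase, at 34512 against 6036, and the lower genes were FDX1 (410 against 1069) and UROD (4803 against 11498), none recomputed. Of 12 ribosome partners 10 were in the table, 1 higher and 0 lower, with a median of -0.15. The higher gene was HBS1L, a ribosome rescue factor, at 2.01-fold, the mean of probes at 0.10 and 1.92 log2. Of 2 channel subunits that pair with ABCC8 and ABCC9, 0 were in the table.

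**Figure D4:**
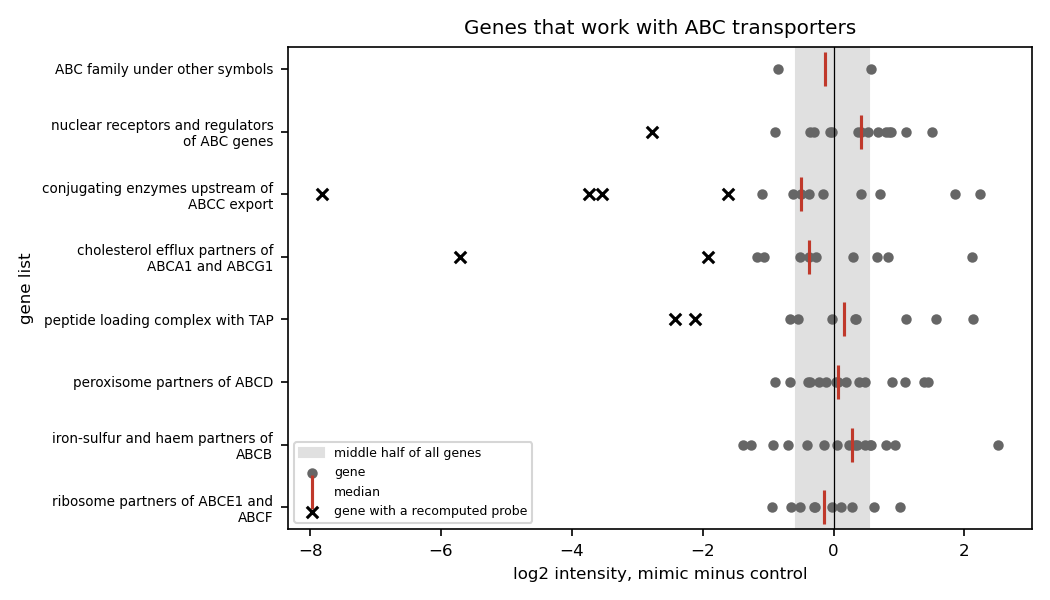
Log2 difference, mimic minus control, of each table gene in the lists of ABC partners (grey points), genes with a recomputed probe (crosses) and list medians (red bars), with the band between the quartiles of all genes in grey. All 8 list medians shown lie inside the band, and the genes below -2 are recomputed.

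**Figure D5:**
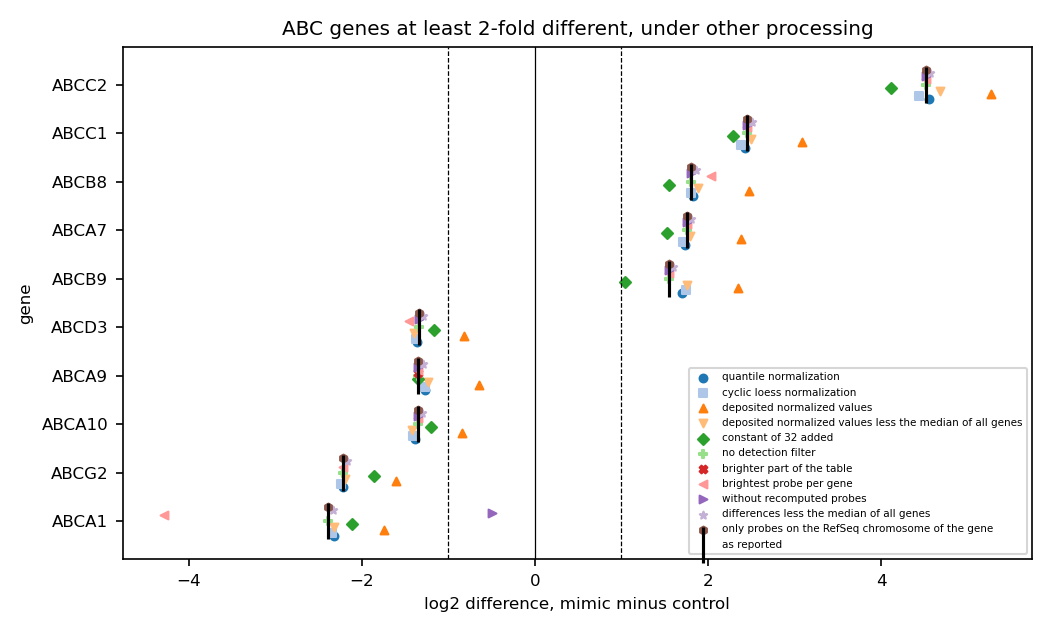
Log2 difference, mimic minus control, of the 10 ABC genes past 2-fold as reported (black bars) and under 11 other ways of processing (coloured symbols), with 2-fold lines dashed. ABCC2, ABCC1, ABCB8, ABCA7 and ABCB9 stay above the upper line under each setting that measured them, whereas ABCA1 runs from -4.28 to -0.50. Settings that only choose among probes cannot change the value of a gene with 1 probe.

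The plot of the 10 genes under other processing shows where single values rest on a choice. ABCC2 ranged from 4.12 to 5.27 log2, ABCC1 from 2.29 to 3.08, ABCB8 from 1.55 to 2.47, ABCA7 from 1.53 to 2.38 and ABCB9 from 1.04 to 2.34, over 10 settings each. Of these, ABCC2, ABCC1, ABCA7 and ABCB9 have 1 probe each, not recomputed and on the gene's own chromosome. Settings that only choose among probes (no detection filter, brightest probe, no recomputed probes, RefSeq chromosome) therefore returned their reported values by construction. ABCG2 ranged from -2.24 to -1.61 over 9 settings, which do not include the removal of its only probe. ABCD3 ranged from -1.45 to -0.82, ABCA10 from -1.42 to -0.84 and ABCA9 from -1.35 to -0.65, the higher end in each case with the authors' deposited normalized values as they stand.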

How the data were processed

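Total RNA was labelled with Cy3 and hybridised to single-colour Agilent arrays, per the labels' protocols, and the submitters' processing notes name Agilent Feature Extraction 9.1. The scanner files hold a linear intensity per spot as deposited, 44495 per array, with no normalization stated. The authors' deposited table gives raw intensity, normalized intensity as log2 and a fold as a linear ratio for probes detected in 5 of 5 samples, per the file headers, of which 3 are not analysed here. No source used here gives the normalization method or genome build.

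Log2 spot intensities were averaged per probe, each array's 75th percentile over 34127 non-control probes was subtracted, and the geometric mean of both percentiles restored the intensity scale. Table probes were named through Entrez identifier (17578 probes), accession (130) or file symbol (676), with 1907 unnamed, using RefSeq. No test was possible with 1 array per group. The scaling step was tested on simulated data. Alternatives used limma 3.58.1 in R 4.3.3. The rule named every ABC gene, though some genes counted here are not reported by name or plotted, with both values for those at least 2-fold different or with disagreeing probes, at most 6 genes a list, and ABC genes outside the table past 10 times the negative-control median. Members, lists and thresholds were chosen with earlier results of these data known.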

Additional observations from a re-analysis of the deposited data

Results flagged for a closer look

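Signal was present in probes outside the table on which the comparisons rest, above the control array's level. The scaled mimic intensity was 346 for ABCG4, 242 for a second ABCA2 probe, 232 for ABCA12 and 138 for a 10-spot ABCB1 probe, each below 10 times the negative-control median on the control array. Each value comes from 1 array.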

How the results depend on the processing

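No paired analysis was possible because each group has 1 array, and leaving out a replicate was not possible for the same reason. No result changed direction among those past 2-fold. The authors' deposited normalized values shift the median of all genes to 0.58 log2, and with them 2 ABC genes were at least 2-fold lower, the family median was 0.64, and the subfamily medians were 0.29 (A), 0.97 (B), 0.88 (C), 0.054 (D), 0.44 (E), 1.10 (F) and -0.22 (G). After that shift was taken off, 6 genes were higher and 5 lower (beside 15.0% and 13.6% of all genes). With no detection filter 10 ABC genes were higher and 8 lower of 49 (beside 14.1% and 16.7% of all genes). Among brighter probes, of 12 genes 0 were higher and 2 lower (beside 12.7% and 14.9% of all genes), with medians of -0.81 (A), 0.0020 (B) and -1.02 (D). Without recomputed probes 3 were lower (beside 7.59% of all genes), since ABCG2 then has no probe and ABCA1 is at -0.50. The D median was -1.02 with the brightest probe per gene and -0.98 with the setting added after the data were seen, probes on the gene's RefSeq chromosome. At 1.5-fold 8 genes were lower (beside 24.7% of all genes). At 3-fold 2 were lower, a threshold at which the share of all genes was not computed. Quantile and cyclic loess normalization each gave 6 higher and 5 lower genes. Beside these, 14.4% and 13.6% of all genes were higher and lower with quantile and 14.2% and 13.7% with cyclic loess normalization. Of the other values, 31 moved by more than 0.34 log2 and 199 did not. That limit is the median gap between the probes of genes with 2 probes, divided by the square root of 2. Signal over background was lowest for ABCB9, ABCG5 and ABCA2 among table genes, which limits their values.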
